A study of Rattus norvegicus with 6 samples.

Results

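The genes described here are those of the core and linker histones, taken as every row typed as a known gene whose symbol begins with Hist1h to Hist4h, H1f, H2af, H2ax or H3f. The rule found 39 genes among 24360 gene rows, of which 14622 were known genes. Of these, 28 carry a Hist symbol and are called replication-dependent here, and the other 11 are called replacement histones. RNA was sequenced from H9c2, a rat cell line derived from embryonic heart, in 3 control samples (Ctrl) and 3 samples given ginsenoside Rb2 (Rb2), a saponin of ginseng. The series title concerns myocardial injury by ischemia and reperfusion. All 6 samples are labelled wild type and were grown in medium with 10% fetal bovine serum. The labels give both groups 1 protocol text: Rb2 was given for 48 h, oxygen and glucose were then withdrawn for 4 to 6 h, and both were restored for 12 h. Whether this withdrawal was applied to the controls, which are labelled NC, is left unsaid. The labels do not state that the replicates came from separate cultures; p-values therefore reflect sample-to-sample spread that could be technical.

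Histones are the proteins around which DNA is wrapped: a core particle holds H2A, H2B, H3 and H4, and the linker histone H1 binds where DNA enters and leaves it. Replication-dependent histone genes lie in clusters, lack introns and are transcribed mainly in S phase, and their mRNAs mostly end in a stem-loop in place of a poly(A) tail. Replacement histones, such as H2A.Z and H3.3, come mostly from genes with introns, carry mostly polyadenylated mRNAs and are made and inserted into chromatin throughout the cell cycle. The labels name an mRNA library kit and do not say how mRNA was selected, so the share of stem-loop mRNA that entered the libraries is unknown and its part in the results was not tested.

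Sequences upstream of 4 genes are shown, those with the smallest p in the comparison below, because the clustered histone genes are known for shared promoter elements. Each window runs from 250 bases before to 50 bases after the gene's start in RefSeq (build GRCr8), 300 bases in all, and capitals mark CCAAT or its complement ATTGG, and TATAAA.
Hist1h1e (H1f4 in RefSeq, chr17:41914175-41914474, plus strand): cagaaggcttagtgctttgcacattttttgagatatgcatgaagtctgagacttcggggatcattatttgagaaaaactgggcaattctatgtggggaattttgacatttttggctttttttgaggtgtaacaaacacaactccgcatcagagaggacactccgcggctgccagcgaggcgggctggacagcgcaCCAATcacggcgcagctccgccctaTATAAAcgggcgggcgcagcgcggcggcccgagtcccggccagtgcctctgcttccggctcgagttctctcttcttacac
Hist1h2ao (chr17:47400829-47401128, minus strand): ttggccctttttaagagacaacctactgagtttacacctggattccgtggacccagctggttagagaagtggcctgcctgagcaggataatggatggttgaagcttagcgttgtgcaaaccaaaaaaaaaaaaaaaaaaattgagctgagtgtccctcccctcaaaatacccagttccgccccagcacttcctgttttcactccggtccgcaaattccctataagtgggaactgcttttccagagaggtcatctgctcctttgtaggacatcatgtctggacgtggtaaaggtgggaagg
Hist1h2ah (chr17:41812128-41812427, plus strand): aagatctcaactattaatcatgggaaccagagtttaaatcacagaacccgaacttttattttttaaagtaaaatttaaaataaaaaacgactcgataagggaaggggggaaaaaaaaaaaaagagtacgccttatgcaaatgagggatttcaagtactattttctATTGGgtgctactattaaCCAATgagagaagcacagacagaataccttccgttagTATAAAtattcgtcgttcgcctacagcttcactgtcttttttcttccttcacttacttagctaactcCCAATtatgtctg
H2afj (H2aj in RefSeq, chr4:171406672-171406971, plus strand): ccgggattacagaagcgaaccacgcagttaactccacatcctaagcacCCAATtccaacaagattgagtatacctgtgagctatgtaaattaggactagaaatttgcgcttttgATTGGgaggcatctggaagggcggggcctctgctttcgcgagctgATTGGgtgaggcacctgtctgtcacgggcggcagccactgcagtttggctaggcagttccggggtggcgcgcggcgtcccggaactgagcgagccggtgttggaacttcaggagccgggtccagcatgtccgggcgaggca

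In Hist1h1e the CCAAT box begins 55 bases and TATAAA 30 bases upstream of the start. Hist1h2ah has TATAAA at the same distance and CCAAT letters 67 bases upstream, 85 bases upstream on the opposite strand, and once after the start. The windows of Hist1h2ao and H2afj hold no TATAAA, and that of Hist1h2ao holds no CCAAT either. H2afj, a replacement gene, has CCAAT letters 202, 136 and 91 bases upstream, the last 2 on the opposite strand. By name or older name, 29 of the 39 genes had a single RefSeq window, 20 of them replication-dependent and 9 replacement. Searched on both strands, CCAAT was present in 17 of the 20 replication-dependent windows, in 6 of the 9 replacement windows and in 37.7% of all 27457 promoters of the same length. TATAAA was present in 13, in 2 and in 14.3% of all promoters. ATGCAAAT, the octamer known from H2B promoters, was present in 5, in 1 and in 1.64% of all promoters, and AAACACA, an element known from H1 promoters, in 3, in 2 and in 6.96%. None of these 4 motifs contains another. These matches describe the letters in the windows and not binding of any factor.

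Total counts ran from 5193077 to 8793390 per library, the highest in Ctrl replicate 1, and 3 counts, taken as the upper bound for a gene with no count, were 0.341 to 0.578 CPM (counts scaled to the library total). Such limits and the intervals below cover counting error only. Ctrl replicate 1 stood apart: on the first principal component, which held 44.7% of the variance, the 3 Ctrl libraries lay at -42.7, -14.7 and 1.12 and the Rb2 libraries between 15.7 and 21.0. The label calls the cells embryonic cardiomyocytes. Of 11 cardiomyocyte markers 9 had a row and 2 passed the low-count filter, Tnnt2 and Nkx2-5; Tnnt2 averaged 52.9 and 45.3 CPM in Ctrl and Rb2, Actc1 was at 0 in all 6 samples, and Myh7, Tnni3, Myl2 and Myl7 were near 0. The skeletal myoblast factors Myod1 (mean 12.4 and 15.8 CPM in Ctrl and Rb2) and Myog (9.72 and 10.2) passed the filter with 3 others of their list of 10, while Ckm, Myh3, Tnnt1 and Chrna1 did not (0.0602 to 1.14 CPM in Ctrl). Summed markers overlapped between the groups for cardiomyocytes (49.6 to 69.4 CPM in Ctrl, 46.8 to 56.7 in Rb2), skeletal myoblasts (115 to 132, 116 to 131), fibroblasts (2924 to 3846, 3477 to 3888), epithelium (32.2 to 41.9, 33.9 to 39.9), leukocytes (0.904 to 1.92, 0.520 to 2.58) and endothelium (0 to 0.121, 0 to 0.178). None of the markers was called by edgeR; Col3a1 of the fibroblast list (895 ± 79.8 and 1188 ± 92.7 CPM) had an adjusted p of 0.0546 and was called higher by DESeq2. Dcn, Epcam, Cdh1, Krt18 and Ptprc were at 0 in every sample. Levels below are CPM scaled by TMM factors, and log2 fold changes are Rb2 over Ctrl from edgeR's quasi-likelihood test, with Benjamini-Hochberg adjustment over the 11551 genes tested.

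Replication-dependent histone RNA was lower in Rb2, at 70.6% of the control level when all 28 genes were summed, and every Rb2 sample lay below every control. Replacement histone RNA, which made up most histone counts, overlapped between the groups on this scale. The summed replication-dependent level was 154, 142 and 128 CPM in Ctrl and 95.7, 97.4 and 106 CPM in Rb2. The means were 141 ± 13.3 and 99.6 ± 5.38 CPM (SD, n = 3 each). The summed replacement level was 3307, 3773 and 3684 CPM in Ctrl and 3747, 3652 and 3621 CPM in Rb2. Its means were 3588 ± 247 and 3673 ± 65.4 CPM, a ratio of 1.02. Ctrl replicate 1 was the lowest library for the replacement class and the highest for the replication-dependent one. Without it the ratios were 0.740 and 0.985, and on the deposited CPM, which are not TMM-scaled, they were 0.765 and 1.11. On that scale the replacement sums no longer overlapped, with 3099, 3549 and 3643 CPM in Ctrl and 3813, 3783 and 3790 CPM in Rb2, so whether this class was separate depends on the scaling. These sums were not tested, since the genes are not replicates. They and the family sums below include paralogs whose identical counts may be the same reads counted for both genes. In RNA from whole cultures, fewer cells in S phase and less histone RNA per cell cannot be told apart.

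**Figure D1:**
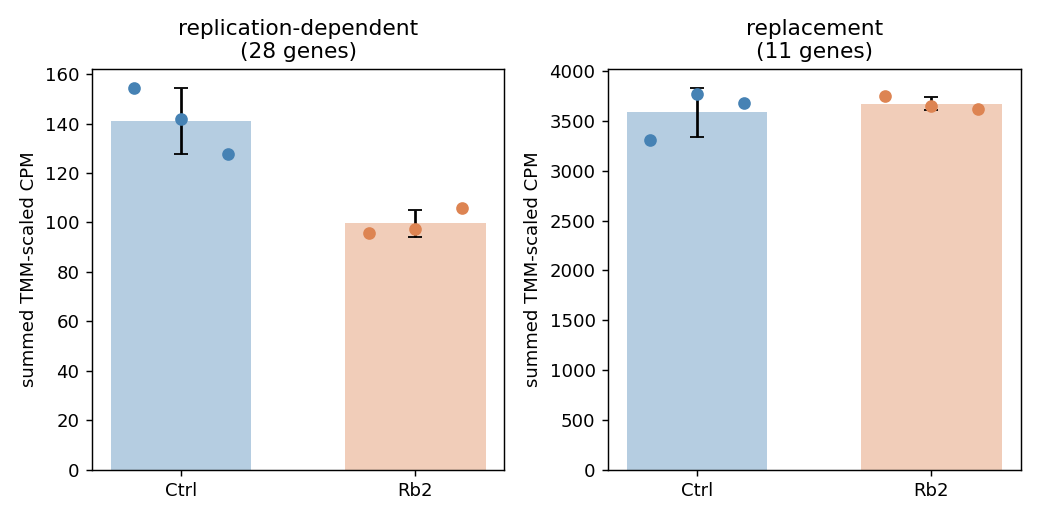
Summed TMM-scaled CPM of the 28 replication-dependent and the 11 replacement histone genes in each sample, with group means and SD (n = 3). The 3 Rb2 samples sit at 95.7 to 106 CPM for the replication-dependent class, below the Ctrl samples at 128 to 154 CPM, whereas the replacement sums overlap on this scale.

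As a share of all histone counts, replication-dependent genes took 4.46% (95% Wilson interval 4.22 to 4.70), 3.62% (3.38 to 3.88) and 3.35% (3.12 to 3.59) in the Ctrl samples. In the Rb2 samples they took 2.49% (2.29 to 2.71), 2.60% (2.39 to 2.82) and 2.84% (2.62 to 3.08). As counted, the groups did not overlap, and neither did the interval of any Ctrl library with that of any Rb2 library. The lowest Ctrl bound (3.12) and the highest Rb2 bound (3.08) nearly met, however. The shares include identical counts of paralogs described below (Hist2h2aa2 and Hist2h2aa3, Hist1h4b and Hist2h4). If these were the same reads counted for both genes, the intervals may overlap, so their separation depends on how reads were assigned. The means were 3.81% ± 0.578 and 2.64% ± 0.178 (SD, n = 3). These shares rest on 730 to 1271 replication-dependent counts per Ctrl library and 538 to 575 per Rb2 library, and on 19682 to 27253 replacement counts per library.

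Families were taken from the gene symbols, so Hist1h2ao was summed with H2A and not with H4. Summed on the TMM scale, each of the 5 replication-dependent families was lower in every Rb2 sample than in every Ctrl sample. The linker histone H1 family was at 7.40, 6.69 and 6.99 CPM in Ctrl and 2.67, 1.73 and 2.21 CPM in Rb2, 31.4% of Ctrl. H4 was at 8.25, 9.04 and 6.12 CPM in Ctrl and 2.49, 2.77 and 3.86 CPM in Rb2, 39.0% of Ctrl. H1 and H4 had the lowest sums of the 5 families. H2A, the most abundant, was at 67.8, 63.8 and 55.6 CPM in Ctrl and 36.7, 43.2 and 48.6 CPM in Rb2, 68.6% of Ctrl. H2B was at 18.9, 19.3 and 15.7 CPM in Ctrl and 12.3, 13.7 and 12.9 CPM in Rb2, 72.0% of Ctrl. H3 was at 51.8, 42.8 and 43.2 CPM in Ctrl and 41.6, 36.0 and 38.3 CPM in Rb2, 84.1% of Ctrl, the family with the smallest distance between groups. Without TMM scaling the H3 sums overlapped. Ctrl replicate 2 had 237 H3 counts in a library of 5881914, and Rb2 replicate 1 had 234 in a smaller library of 5521376. The separation of H3 thus depends on the scaling.

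Gene by gene, 23 of the 39 histone genes passed the low-count filter, 15 replication-dependent and 8 replacement. Over all genes tested, 2.70% were called in either direction, 1.90% higher and 0.805% lower in Rb2. Of the 15 replication-dependent genes 1 was called lower and 0 higher, and of the 8 replacement genes 0 were called in either direction. A share of 1 in 15 is above 0.805%, but it rests on a single gene. At an unadjusted p under 0.05, 5 of the 15 were lower and 0 higher, against 8.17% lower and 11.8% higher of all genes tested. The groups did not overlap, with Rb2 lower, in 8 of the 15, against 12.2% of all genes. All 15 had a fold change below 0, against 52.0% of all genes, with a median of -0.43 and a range of -1.75 to -0.18 beside a median of -0.02 over all genes. Since a gene can pass the filter through the group where it is higher, these counts describe the genes that passed and not all 28. Under a length offset, a correction fitted to the trend of each library with gene length, the median was -0.19 and 12 of the 15 were below 0. The call itself was carried by the H1 gene described next.

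**Figure D2:**
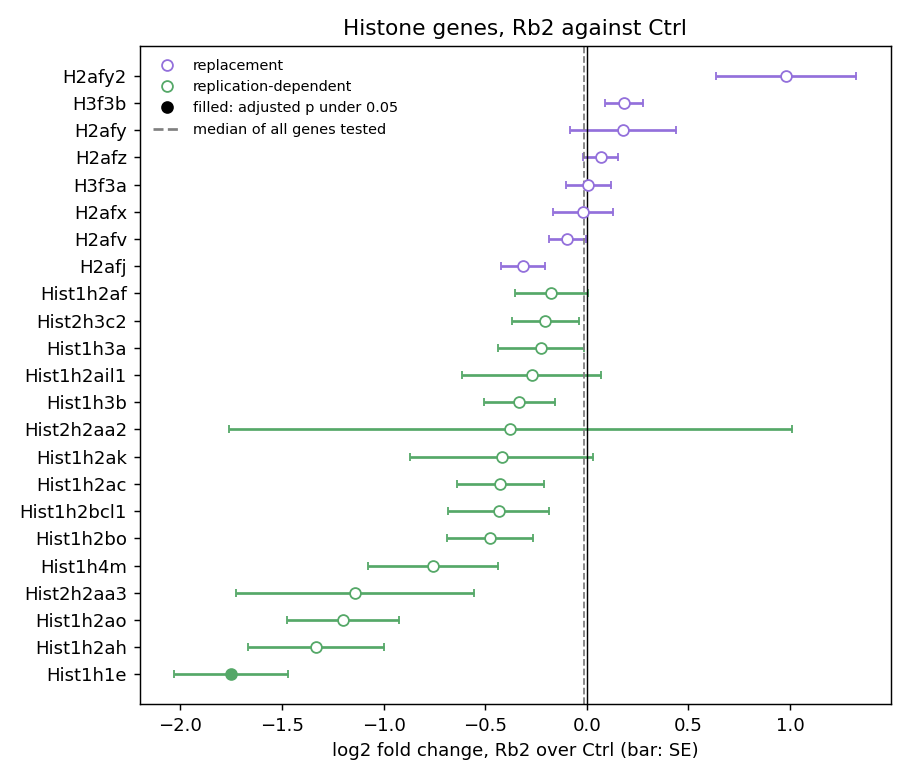
Log2 fold change, Rb2 over Ctrl, with its standard error for each of the 23 histone genes past the filter, by class. The 15 replication-dependent genes lie between -1.75 and -0.18, and the 8 replacement genes between -0.31 and 0.98.

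Gene length moves with this pattern. The 15 replication-dependent genes had a median of 396 bases, though Hist1h2bcl1 (994 bases) and Hist1h2bo (1497 bases) were longer, while the median of the 8 replacement genes was 1923 bases. Among the other known genes of 300 to 700 bases, 105 of 139 (75.5%) had a fold change below 0, with a median of -0.16, while 46.0% of all 8426 known genes tested did, with a median of 0.04. Restricted to the range of mean CPM that the replication-dependent genes span, 21 of 35 such short genes (60.0%) were below 0, with a median of -0.12. Of the 139, 2 were called higher and 2 lower, and in 35 the groups did not overlap with Rb2 lower. At an unadjusted p under 0.05, 33 of the 139 were lower and 9 higher, against 8.17% and 11.8% of all genes tested. Of the 35 short genes within the CPM range, 1 was lower and 1 higher at that p. Their groups did not overlap in 3 with Rb2 lower and in 2 with Rb2 higher. Over the other known genes in 20 bins of length, the median fold change was -0.12 in the shortest bin (median length 785.5 bases) and 0.16 in the longest (7563 bases). Short known genes thus had a median below 0, nearer to 0 than the -0.43 of the replication-dependent genes. They were also longer, with a median of 589 bases for the 139 and 499 bases for the 35, against 396. The comparison is therefore not matched for length, and the part of length in the difference was not tested.

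**Figure D3:**
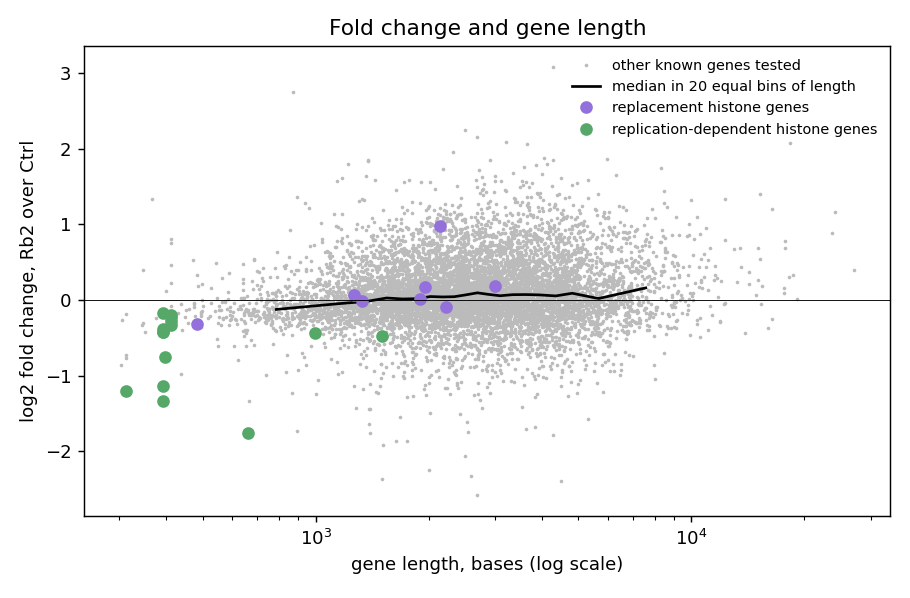
Log2 fold change (Rb2 over Ctrl) against gene length on a log axis, for the known genes tested, with the histone genes past the filter in colour and a line for the median in 20 bins of length. The replication-dependent genes lie mostly at the short end, all below 0.

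Among linker histones, Hist1h1e (ENSRNOG00000047459), which encodes H1.4, fell. It was at 4.97, 5.06 and 5.77 CPM in Ctrl and 1.96, 1.21 and 1.47 CPM in Rb2. All 3 Rb2 samples lay far below the lowest Ctrl sample. The means were 5.27 ± 0.434 and 1.55 ± 0.378 CPM (SD, n = 3), and the log2 fold change was -1.75 (SE 0.28, edgeR adjusted p = 0.0232). The call rests on 41, 28 and 33 counts in Ctrl and 11, 7 and 8 in Rb2. It was lost when Ctrl replicate 2 (adjusted p = 0.128) or Rb2 replicate 1, 2 or 3 (0.0621, 0.188 and 0.138) was left out, while the fold change stayed between -1.96 and -1.60 in those fits. DESeq2 gave it no adjusted p, as for 7 of the 23 histone genes. The other 3 replication-dependent H1 genes did not pass the filter: Hist1h1d had 7, 4 and 3 counts in Ctrl and 0, 1 and 2 in Rb2, Hist1h1c had 9, 1 and 1 against 2, 1 and 2, and Hist1h1b had 4, 4 and 3 against 2, 1 and 0. Counts of Hist1h1c gave no order between the groups. Those of Hist1h1d and Hist1h1b were lower in every Rb2 library, but only 3 counts against 2 parted the groups, and neither gene was tested.

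**Figure D4:**
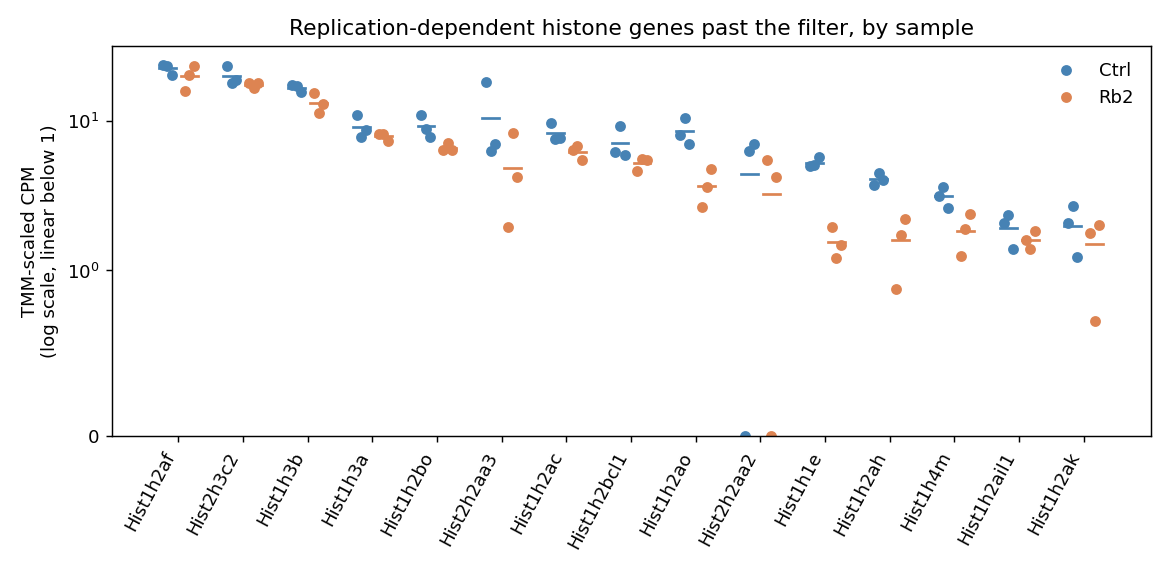
TMM-scaled CPM in each sample (points; log axis, linear below 1) for the replication-dependent histone genes past the filter, Ctrl and Rb2 side by side, with dashes at the group means. Hist1h1e, Hist1h2ao and Hist1h2ah show the widest gaps between groups, and Hist1h2af overlaps.

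H2A, which pairs with H2B in the core particle, had 8 of 10 genes past the filter, with families taken from the symbols. Hist1h2ao, at 312 bases, has the length of Hist1h4b, Hist2h4 and Hist2h4a, whereas Hist1h2af and Hist1h2ah have 393. Hist1h2ail1, at 411 bases, has the length of Hist2h3c2, Hist1h3b and Hist1h3a. Which protein Hist1h2ao and Hist1h2ail1 encode was not tested, so sums and counts by family depend on the symbols. Hist1h2ao (ENSRNOG00000045840) was at 8.13, 10.5 and 6.99 CPM in Ctrl and 2.67, 3.64 and 4.78 CPM in Rb2. No Rb2 value reached the lowest Ctrl value, and the means were 8.53 ± 1.78 and 3.70 ± 1.06 CPM. Its log2 fold change was -1.20 (SE 0.28), just outside the threshold with edgeR (adjusted p = 0.0526) and inside it with DESeq2 (-1.21, adjusted p = 0.0344), which called 1.19% of genes lower. Hist1h2ah (ENSRNOG00000060492) was at 3.76, 4.52 and 4.02 CPM in Ctrl and 0.890, 1.73 and 2.21 CPM in Rb2. Again all Rb2 values lay below all Ctrl values. Its log2 fold change was -1.33 (SE 0.33, adjusted p = 0.0657), and it passed when Ctrl replicate 1 was left out (0.0377). Hist1h2ao passed without Ctrl replicate 1 (0.0220) or Ctrl replicate 3 (0.0410). Hist1h2af (ENSRNOG00000022146), the replication-dependent gene with the highest level per length, was at 23.9, 23.3 and 20.3 CPM in Ctrl and 15.8, 20.5 and 23.5 CPM in Rb2. These overlapped, with a log2 fold change of -0.18 (SE 0.18, adjusted p = 0.624). Without it, the summed replication-dependent level in Rb2 was 0.672 of that in Ctrl. Hist1h2ac was lower in every Rb2 sample (8.33 ± 1.19 and 6.23 ± 0.639 CPM; log2 fold change -0.43, adjusted p = 0.301), and Hist1h2ail1 (-0.27) and Hist1h2ak (-0.42) overlapped between groups. The H2A genes that did not pass the filter, Hist2h2ac and Hist2h2ab, had at most 1 count in any library.

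The paralogs Hist2h2aa3 and Hist2h2aa2, of equal length, share reads in a way that makes their separate values uncertain. Hist2h2aa3 was at 18.2, 6.33 and 6.99 CPM in Ctrl and 1.96, 8.32 and 4.23 CPM in Rb2. Hist2h2aa2 was at 0, 6.33 and 6.99 CPM in Ctrl and 5.52, 0 and 4.23 CPM in Rb2. In Ctrl replicates 2 and 3 and Rb2 replicate 3 their counts were identical, and in Ctrl replicate 1 and Rb2 replicate 2 all counts stood with Hist2h2aa3. Summed, a value computed after this was seen, the pair was at 18.2, 12.7 and 14.0 CPM in Ctrl and 7.47, 8.32 and 8.46 CPM in Rb2, 54.1% of Ctrl with no overlap. The counts behind these sums were 150, 70 and 80 in Ctrl and 42, 48 and 46 in Rb2. Alone, their log2 fold changes were -1.14 (SE 0.58, adjusted p = 0.324) and -0.38 (SE 1.39, adjusted p = 0.911). Whether identical counts are reads split between the paralogs or the same reads counted for both is unknown, and in the latter case the sum counts them double. The larger value in each library was 18.2, 6.33 and 6.99 CPM in Ctrl and 5.52, 8.32 and 4.23 CPM in Rb2, which overlapped. The separation of the pair thus depends on how reads were assigned.

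H2B genes were measured by 2 members past the filter of 7. Hist1h2bo (ENSRNOG00000054296) was at 10.9, 8.86 and 7.86 CPM in Ctrl and 6.41, 7.11 and 6.44 CPM in Rb2. These were apart (9.21 ± 1.56 and 6.65 ± 0.395 CPM), and the log2 fold change was -0.48 (SE 0.21, unadjusted p = 0.0482, adjusted p = 0.247). Hist1h2bcl1 was also lower in each Rb2 sample, with means of 7.12 ± 1.82 and 5.23 ± 0.523 CPM and a log2 fold change of -0.43 (adjusted p = 0.359). Neither was called. The other 5 H2B genes had at most 9 counts in a library, and Hist1h2bh had 0 in all 6, which allows up to 0.341 to 0.578 CPM.

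H3, whose tail carries many known chromatin marks, had all 3 replication-dependent genes past the filter, and none was called by edgeR, DESeq2 or limma; 0 of them had an unadjusted p under 0.05. Hist2h3c2 (ENSRNOG00000045646) was at 23.4, 17.9 and 18.9 CPM in Ctrl and 18.0, 16.6 and 17.8 CPM in Rb2, which overlapped (log2 fold change -0.20, SE 0.16, adjusted p = 0.522). Hist1h3b (ENSRNOG00000046434) was at 17.4, 17.2 and 15.6 CPM in Ctrl and 15.5, 11.3 and 13.1 CPM in Rb2. Here the lowest Ctrl and highest Rb2 values nearly touched, and the log2 fold change was -0.33 (SE 0.18, adjusted p = 0.322). Hist1h3a (ENSRNOG00000046144) was at 11.0, 7.77 and 8.74 CPM in Ctrl and 8.19, 8.15 and 7.36 CPM in Rb2. These overlapped, with a log2 fold change of -0.23 (SE 0.21, adjusted p = 0.586). Under the length offset the fold changes of Hist2h3c2, Hist1h3a and Hist1h2af turned to 0.02, 0.0019 and 0.06, so their direction depends on that choice.

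By symbol, H4, the partner of H3, had 1 of 4 genes past the filter, and Hist1h2ao was not counted here. Hist1h4m (ENSRNOG00000032224) was at 3.15, 3.61 and 2.62 CPM in Ctrl and 1.25, 1.91 and 2.39 CPM in Rb2. The groups did not overlap, with a log2 fold change of -0.76 (SE 0.32, unadjusted p = 0.0408, adjusted p = 0.228). Hist1h4b and Hist2h4 had equal counts in 4 of the 6 libraries, and in the other 2 libraries all counts stood with Hist1h4b, so they too cannot be separated. Together, summed after this was seen, these 2 genes had 34, 29 and 18 counts in Ctrl and 4, 4 and 7 in Rb2, which is 4.13, 5.24 and 3.15 CPM against 0.712, 0.693 and 1.29 CPM, 21.5% of Ctrl. That sum, too, would count reads double if equal counts were the same reads assigned to both genes. The last H4 gene, Hist2h4a, had 8, 1 and 2 counts in Ctrl and 3, 1 and 1 in Rb2. Over all 13 replication-dependent genes that did not pass the filter, the sum was 9.34, 8.49 and 6.64 CPM in Ctrl and 3.20, 2.60 and 3.31 CPM in Rb2. That is 37.2% of Ctrl, from 77, 47 and 38 counts against 18, 15 and 18, so the sum of the genes left out of the test was lower in Rb2 as well.

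Compared per length, the replication-dependent genes with the highest levels were Hist1h2af (57.2 CPM per kilobase in Ctrl and 50.8 in Rb2), Hist2h3c2 (48.8 and 42.5) and Hist1h3b (40.6 and 32.3). Hist1h2ao was at 27.4 and 11.9, Hist1h2ah at 10.4 and 4.10 and Hist1h1e at 7.98 and 2.35 CPM per kilobase. All of these stood far below the abundant replacement genes. H2afz led at 1135 CPM per kilobase in Ctrl and 1189 in Rb2, followed by H2afj (661 and 532), H3f3a (376 and 378), H3f3b (220 and 250) and H2afv (169 and 158). H2afy (27.5 and 31.2) and H2afx (24.8 and 24.5) came next, and these 2 neighbours did not differ beyond the spread of H2afy over its samples.

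Of the 8 replacement genes past the filter, edgeR, DESeq2, limma-voom and limma on log CPM called 0 in either direction. At an unadjusted p under 0.05, 1 was lower (H2afj) and 1 higher (H2afy2). The groups did not overlap with Rb2 higher in 1 of 8, against 15.0% of all genes tested, and with Rb2 lower in 1 of 8, against 12.2%. Their median log2 fold change was 0.04, and it was -0.01 with upper-quartile factors and 0.15 with library size alone, so the class had no direction that held across scalings. H2afz (ENSRNOG00000010306) encodes H2A.Z, a variant found around transcription start sites. It was at 1269, 1526 and 1501 CPM in Ctrl and 1526, 1483 and 1495 CPM in Rb2. Ctrl replicate 1 was low and the other 5 libraries lay close together (log2 fold change 0.07, SE 0.09, adjusted p = 0.711). H2afv (ENSRNOG00000052275), which encodes the second H2A.Z protein, was at 407, 375 and 341 CPM in Ctrl and 362, 343 and 346 CPM in Rb2, with overlap (-0.10, SE 0.09, adjusted p = 0.593; 0.02 with library size alone).

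H3f3a and H3f3b encode the same protein, H3.3, which is inserted at active genes by the HIRA complex. H3f3a (ENSRNOG00000006532) was at 587, 762 and 790 CPM in Ctrl and 719, 725 and 705 CPM in Rb2. Its mean was 713 ± 110 CPM in the controls and 716 ± 10.2 CPM in Rb2, with overlap (log2 fold change 0.01, SE 0.11, adjusted p = 0.979), and its sign turned with upper-quartile factors (-0.04). H3f3b (ENSRNOG00000003220) was at 587, 702 and 691 CPM in Ctrl and 784, 758 and 708 CPM in Rb2. Every Rb2 sample lay above every Ctrl sample, although the gene was not called (0.18, SE 0.09, adjusted p = 0.303). Summed, the pair was at 1174, 1463 and 1481 CPM in Ctrl and 1503, 1482 and 1413 CPM in Rb2, which overlapped.

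**Figure D5:**
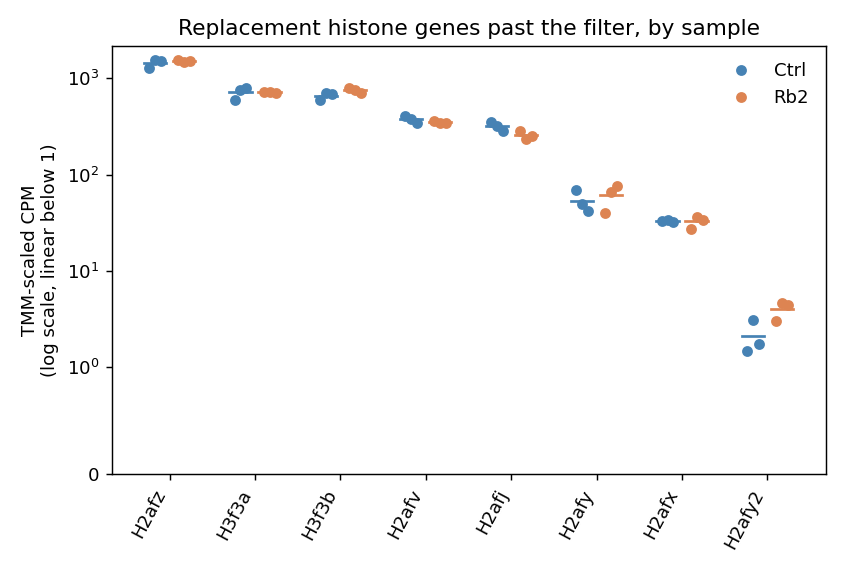
TMM-scaled CPM in each sample (log axis, linear below 1) for the replacement histone genes past the filter, Ctrl and Rb2 side by side, with dashes at the group means. Ctrl replicate 1 is the lowest library for H2afz (1269 CPM) and H3f3a (587 CPM), and H2afj runs from 285 to 352 CPM in Ctrl and from 235 to 284 CPM in Rb2.

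H2afj (ENSRNOG00000033045) encodes H2A.J, a variant known from human fibroblasts to accumulate in senescent cells. At 483 bases it was also the shortest replacement gene past the filter. It was at 352, 321 and 285 CPM in Ctrl and 284, 235 and 252 CPM in Rb2. All Rb2 values were lower, but the lowest Ctrl value (284.8) and the highest Rb2 value (284.0) nearly met, and the log2 fold change was -0.31 (SE 0.11, unadjusted p = 0.0168, adjusted p = 0.146). Under the length offset it was -0.10 (unadjusted p = 0.243, adjusted p = 0.509), no longer under 0.05. H2afy2 (ENSRNOG00000024751) encodes macroH2A2, a variant with a large extra domain outside the core particle. It was at 1.46, 3.07 and 1.75 CPM in Ctrl and 3.03, 4.68 and 4.42 CPM in Rb2. The lowest Rb2 value lay below the highest Ctrl value, and the log2 fold change was 0.98 (unadjusted p = 0.018, adjusted p = 0.151). H2afy, for macroH2A1, varied within both groups, at 69.4, 49.3 and 42.1 CPM in Ctrl and 40.2, 66.2 and 76.2 CPM in Rb2 (adjusted p = 0.754). H2afx, for H2A.X, the variant phosphorylated at DNA breaks, averaged 33.0 ± 1.01 CPM in the controls and 32.6 ± 4.83 CPM in Rb2 (adjusted p = 0.963), and the sign of its small fold change turned with library size alone (0.10). Of the 3 replacement genes not past the filter, H3f3c had 8, 2 and 3 counts in Ctrl and 5, 10 and 8 in Rb2, and H1fx and H1foo had at most 1 in any library.

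At the level of transcripts, the 39 genes had 59 transcript rows, of which 28 passed the filter. With edgeR 0 of the 28 were called, against 0.00% of all 16679 transcripts tested, and 4 of the 28 had an unadjusted p under 0.05, those of Hist1h1e, Hist1h2ao, Hist1h2ah and H2afj, each with a single transcript row past the filter and lower in Rb2. Over all 16679 transcripts, 2304 had an unadjusted p under 0.05 in either direction, so 4 of 28 is near the share over all transcripts. A share for lower transcripts alone was not computed. DESeq2 called 348 transcripts, 0 of them of histone genes. The transcript of Hist1h1e had an adjusted p of 0.127 with edgeR. In most replacement genes nearly all counts fell on 1 transcript, which for H2afz (99.9%, 1250 bases) and H3f3b (99.9%, 2987 bases) was a new model of the deposited table and for H3f3a (99.8%) and H2afv (95.6%) an annotated one. Hist1h2bo, a replication-dependent gene, had 63.2% of its counts on a new model of 476 bases and 29.7% on another of 782 bases, and 6.76% on an annotated transcript of 565 bases. Hist1h2bcl1 had 84.8% on its annotated transcript and 15.2% on a new one of 467 bases. How the new models were built is not given in the sources used here.

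The genes that process, carry and use histone RNA and protein were described by 4 lists. For processing of histone pre-mRNA (stem-loop binding protein, U7 particle and cleavage factors), 14 of 21 genes were tested and edgeR called 0, with 4 higher and 0 lower at an unadjusted p under 0.05, against 11.8% and 8.17% of all genes, and a median log2 fold change of 0.09. DESeq2 called 1 higher, Slbp, limma-voom 0, and limma on log2 of CPM plus 1 and plus 0.1 called 2 and 1. Over all genes these tools called 4.05%, 1.60%, 4.45% and 4.16% higher. Snrpf, a shared Sm ring protein and the tested gene of this list with the highest CPM, averaged 425 ± 31.6 CPM in the controls and 400 ± 18.9 CPM in Rb2 (edgeR adjusted p = 0.617). Slbp, which binds the stem-loop, is named after its values were seen: it was at 30.2, 42.8 and 45.6 CPM in Ctrl and 60.7, 63.3 and 61.6 CPM in Rb2. Its groups did not overlap, with Rb2 higher (log2 fold change 0.65, edgeR adjusted p = 0.0635; DESeq2 adjusted p = 0.0215).

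Among histone chaperones, which escort histones to and from DNA, 25 of 27 were tested and edgeR called 2 higher and 0 lower, against 1.90% higher and 0.805% lower of all genes, with a median of 0.11. DESeq2 called 5 higher, limma-voom 2, and limma on log2 of CPM plus 1 and plus 0.1 called 6 and 5. Of all genes, these tools called 4.05%, 1.60%, 4.45% and 4.16% higher. At an unadjusted p under 0.05, 7 were higher and 0 lower, against 11.8% and 8.17% of all genes. Anp32e (ENSRNOG00000021168), which removes H2A.Z from chromatin, rose: it was at 45.9, 55.1 and 54.9 CPM in Ctrl and 87.4, 83.0 and 79.8 CPM in Rb2 (log2 fold change 0.69 with SE 0.12; edgeR adjusted p = 0.0294). Npm1, the abundant nucleolar chaperone, rose as well, from 296, 366 and 400 CPM in Ctrl to 553, 565 and 521 CPM in Rb2 (0.63, SE 0.11, edgeR adjusted p = 0.0327). In both, every Rb2 sample lay above every Ctrl sample. Both calls were lost when Ctrl replicate 2 or Rb2 replicate 1, 2 or 3 was left out, with adjusted p from 0.106 to 0.188 for Anp32e and from 0.109 to 0.188 for Npm1. In the list of the SRCAP, TIP60/p400 and INO80 complexes, which exchange H2A.Z, 14 of 18 were tested and 0 called by edgeR, DESeq2 or limma. This list had 1 higher and 0 lower at an unadjusted p under 0.05, against 11.8% and 8.17% of all genes, and a median of 0.03. Yeats4, its tested gene with the highest CPM, averaged 233 ± 32.6 CPM in the controls and 218 ± 23.6 CPM in Rb2 (edgeR adjusted p = 0.715).

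Of the S phase and replication genes, 28 of 31 were tested and edgeR called 1 higher and 0 lower, against 1.90% and 0.805% of all genes, with a median of 0.12. At an unadjusted p under 0.05, 6 were higher and 0 lower, against 11.8% and 8.17%. DESeq2 called 4 higher, limma-voom 1, and limma on log2 of CPM plus 1 and plus 0.1 called 5 each. Their shares over all genes were 4.05%, 1.60%, 4.45% and 4.16%. The gene called by edgeR was Rfc4, a subunit of the clamp loader, at 213, 241 and 232 CPM in Ctrl and 325, 301 and 298 CPM in Rb2 (log2 fold change 0.43 with SE 0.09; adjusted p = 0.0423 in edgeR). The groups were separate, with Rb2 higher, which is the opposite order to that of the replication-dependent histone sum. This call too was lost without Ctrl replicate 2 (0.146) or Rb2 replicate 1, 2 or 3 (0.154, 0.199 and 0.170), and with upper-quartile factors (0.0649) or known genes only (0.0575). The chaperone list had a median length of 3365 bases, and the bin of the longest known genes had a median of 0.16; the part of length in the list medians was not tested.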

How the data were processed

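RNA-seq of 6 H9c2 samples, 3 Ctrl and 3 Rb2, grouped by the labels' titles, was analysed from the deposited tables. The deposited gene and transcript counts are whole-number counts per row, per the file headers, and a second deposited gene table holds CPM, with no length scaling. Per the submitters' processing notes, HISAT2, DESeq2 and mm10 were used, without a stated role. Since known genes have rat identifiers, the build is unsettled. For the counter, the annotation, the strand setting and the origin of the new transcript models, the answer is not given in the sources used here. Further per-sample columns, 18 in the gene table, match no sample here and were not used.

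The test was edgeR 4.0.16 (R 4.3.3), with low counts removed by filterByExpr on group, TMM scaling, a robust quasi-likelihood fit of group alone, and Benjamini-Hochberg adjustment over all genes (or transcripts) tested, with a call at an adjusted p under 0.05. The standard error is the size of the log2 fold change divided by the square root of F. Alternatives were other scalings and filters, DESeq2 1.42.0, limma 3.58.1 (voom, and log2 of CPM plus 1 or 0.1), known genes only, the replicate number as a block, each sample left out, and a length offset (per library, a loess fit of its log-ratios against log2 length, span 0.5). The fits were tested on simulated data.

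The histone genes and the lists were chosen with earlier results of these data known. Values in every sample are given for called genes, for those with an unadjusted p under 0.05 and for the 5 genes of each class with the highest mean CPM; in each list the called genes are named, or the gene with the highest CPM. Of 142 list and marker entries, 131 matched by symbol, 1 by an older symbol and 10 were not analysed here. Promoter windows come from RefSeq on GRCr8: 16 genes matched by symbol and 16 by a synonym, 6 were ambiguous and 1 had no match.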

Additional observations from a re-analysis of the deposited data

How the results depend on the processing

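Over 18 alternative fits, the 15 replication-dependent genes kept a median log2 fold change below 0; the value was -0.31 with library size alone, -0.26 and -0.30 with limma on log2 of CPM plus 1 and plus 0.1, -0.19 with the length offset, and -0.52 to -0.32 when single samples were left out. Library size alone moved the median of all genes from -0.02 to 0.10. The replacement median of 0.04 was -0.0087 with upper-quartile factors, -0.0044 with known genes only, 0.15 with library size alone and 0.16 with limma at either pseudocount, and 0.0037 to 0.094 when single samples were left out. The replacement ratio of summed CPM was 1.11 on the deposited CPM and 0.985 to 1.05 when single samples were left out, an alternative chosen after seeing the data; the replication-dependent ratio was then 0.673 to 0.740.

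The count of histone genes called lower, 1, was 2 with upper-quartile factors or without the filter and 0 to 3 when single samples were left out (3 without Ctrl replicate 1, 2 without Ctrl replicate 3, 0 without Ctrl replicate 2 or any Rb2 sample). Genes called higher, 219 in all, were 135 with upper-quartile factors, 463 with library size alone, 386 without the filter, 514 and 480 with limma on log2 of CPM plus 1 and plus 0.1, 135 with the length offset, 83 with known genes only and 0 to 605 when single samples were left out. Genes called lower, 93 in all, were 150 without the filter, 30 with known genes only and 3 to 291 when single samples were left out. Transcripts called, 0 in all, were 8 higher and 19 lower without the filter and 210 and 138 with DESeq2, and 0 to 13 and 0 to 28 when single samples were left out.

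The replicate numbers showed no pairing of the samples: same-numbered samples correlated at -0.073, -0.078 and -0.019, and no sample correlated best with its own number. Taken as deviations from means of 3 samples, these correlations cannot settle whether the samples were handled in numbered pairs. With the replicate number as a block, 12 genes were higher, 21 lower and 0 histone genes called, and Hist1h1e had an adjusted p of 0.0626 at the same fold change; Anp32e (0.0755), Npm1 (0.0612) and Rfc4 (0.0909) were not called either. Over the alternatives that gave one, the adjusted p of Hist1h1e ran from 0.00508 to 0.188 and its log2 fold change from -1.96 to -1.22. Hist1h2ao passed with upper-quartile factors (0.0498), without the filter (0.0300), with DESeq2 (0.0344) and without Ctrl replicate 1 (0.0220) or 3 (0.0410).

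Some fold changes reversed in sign, none of them called in any of these fits. H3f3a was -0.038 with upper-quartile factors, -0.068 with the length offset, -0.034 with known genes only and -0.098 without Ctrl replicate 1. H2afv was 0.019 with library size alone and 0.021 with limma at either pseudocount. H2afx was 0.097 with library size alone, 0.0049 without the filter, 0.082 and 0.084 with limma at CPM plus 1 and plus 0.1, and -0.11 to 0.096 when single samples were left out (above 0 without Ctrl replicate 1, Ctrl replicate 2 or Rb2 replicate 1). Hist2h2aa2 was 0.29 with limma-voom and -1.03 to 0.21 when single samples were left out (above 0 without Ctrl replicate 2, Ctrl replicate 3 or Rb2 replicate 2). Under the length offset Hist1h2af was 0.055, Hist2h3c2 0.023 and Hist1h3a 0.0019. H2afy ran from -0.012 (without Rb2 replicate 3) to 0.43 (without Ctrl replicate 1). Snrpf was 0.026 with library size alone and with limma at either pseudocount; Yeats4 was 0.020 with library size alone, 0.022 with limma at either pseudocount and -0.19 to 0.0063 when single samples were left out. The cause of these changes was not tested. Depth limits the 16 histone genes that did not pass the filter, most of which had under 10 counts in every library.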

Other observations

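Asf1a, a chaperone of H3 and H4 named here after its values were seen, was at 16.4, 14.8 and 12.9 CPM in Ctrl and 20.1, 47.8 and 54.6 CPM in Rb2. Its groups did not overlap, but Rb2 replicate 1 lay much nearer the controls than the other Rb2 libraries, and the gene was not called by edgeR (log2 fold change 1.47, edgeR adjusted p = 0.065), though DESeq2 called it (adjusted p = 0.000349). H2afy showed a similar order of libraries in one of its transcripts, also chosen after its values were seen. A new model of 1351 bases took 1.75% (95% Wilson interval 0.952 to 3.19), 1.10% (0.374 to 3.18) and 2.90% (1.41 to 5.87) of the gene's counts in Ctrl. In Rb2 it took 3.54% (1.80 to 6.83), 7.85% (5.56 to 11.0) and 7.97% (5.73 to 11.0). The means were 1.92% ± 0.915 and 6.45% ± 2.53 (SD, n = 3). An exact two-sided permutation test gave a p of 0.1, the smallest that 3 samples against 3 can give. Any 2 groups of this size that do not overlap give this value, so it adds nothing to the order for which the transcript was chosen. The model had 3 to 10 counts in a Ctrl library and 8 to 33 in an Rb2 library, and it did not pass the low-count filter.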
